A study of Mus musculus with 189 samples.

Results

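Mature mast cells of the mouse peritoneal cavity were ranked by how many reads of their own genes were counted for each read of the ERCC spike-in, a set of synthetic RNAs added to every well. Of 94 mature mast cells, the 31 with the highest ratio were compared with the 31 with the lowest, gene by gene. These 62 cells belong to a series of 189 single cells, and the other 32 mature cells lie between them. The ratio itself was measured and chose the cells, so its values below are a description. Because the ratio turned out to depend strongly on which spike-in species were read, the cells are called high-ratio and low-ratio here, not high and low in RNA.

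The cells came from 4 female C57BL/6 mice, and the labels give no further treatment or genotype for either group. Mature mast cells were sorted as live, lineage-negative cells that carried FcεRI (the receptor for IgE) and c-Kit and had low integrin β7 and high side scatter. The other group, 95 basophil-mast cell progenitors (BMCPs), was sorted on high integrin β7 and low side scatter. No label ties a cell to a mouse, so all mature cells count as 1 pooled sample, and no difference below carries a test.

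Mast cells store proteases, histamine and serotonin with proteoglycans in large secretory granules, and release them when IgE bound to its receptor is cross-linked by antigen. Peritoneal mast cells are of the connective tissue type, are long lived and rarely divide. A spike-in added in equal amount to each well is read less often where a cell brings more RNA of its own, which is why the ratio is used as a measure of RNA content. It also carries any difference in lysis, in reverse transcription and in the amount of spike-in dispensed.

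The high-ratio cells held 1199 to 3873 endogenous reads per ERCC read, with a median of 1862. The middle cells held 739.9 to 1192, with a median of 939, and the low-ratio cells 309 to 733, with a median of 615. The medians of the high-ratio and low-ratio cells differed 3.03-fold. Cell 71, the last of the high-ratio cells, had a ratio of 1199 and cell 44, the next in rank, 1192. At the other boundary cell 85 had 739.9 and cell 46, the first of the low-ratio cells, 733. The ratio thus ran on with no wide gap at either boundary.

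The spike-in reads set the order of the cells. High-ratio cells had 250 to 1299 ERCC reads, with a median of 708, and low-ratio cells had 924 to 5382, with a median of 2400. Endogenous reads went the other way, with a median of 1099279 in high-ratio and 1464400 in low-ratio cells. Over the 94 cells the ratio had a Spearman rho of -0.91 with ERCC reads and -0.35 with endogenous reads. These are descriptions, since both quantities are part of the ratio.

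**Figure D1:**
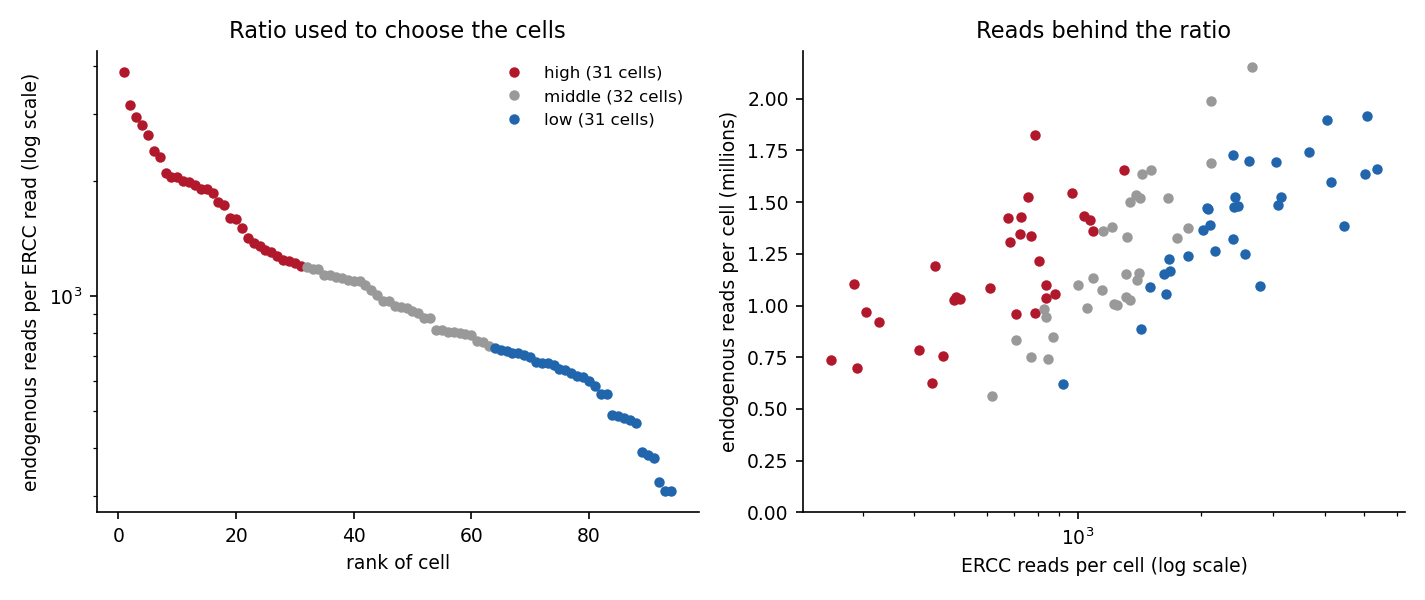
Left, endogenous reads per ERCC read (log scale) of each of 94 mature mast cells against its rank; right, endogenous reads against ERCC reads (log scale), 1 point per cell. High-ratio cells have 250 to 1299 ERCC reads and low-ratio cells 924 to 5382, with no wide gap in the ratio between neighbouring groups.

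The spike-in was read from few species. Of 92 ERCC species, 34 had a read in any mature mast cell, and 4 of them held 66.2% of all ERCC reads. ERCC-00074 alone held 28.7% and was read in 93 of 94 cells. A high-ratio cell had reads of 4 to 11 species and a low-ratio cell of 5 to 12. Between the 10 most read species, each taken per endogenous read, the 45 pairwise Spearman rhos over 94 cells had a median of 0.06 and ran from -0.25 to 0.27.

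Cells ranked by different spike-in species were largely different cells. When the species were divided into 2 sets of 46 that held 55.1% and 44.9% of ERCC reads, the ratios from the sets had a rho of 0.21 over 94 cells. The sets shared 12 of 31 high-ratio and 11 of 31 low-ratio cells, and 8 cells that were high by the first set were low by the second. ERCC-00074 against all other species gave a rho of 0.21, with 12 high-ratio and 13 low-ratio cells shared. Species with odd identifier numbers, which held 16.6% of ERCC reads, against those with even numbers gave a rho of 0.04.

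Marker genes of mast cells were read in nearly all cells of both groups. Reads for the chymase Cma1, the tryptase Tpsb2 and the carboxypeptidase Cpa3 gave at least 10 CPM (a gene's reads scaled to a fixed total of endogenous reads) in 31 of 31 high-ratio and 31 of 31 low-ratio cells. Kit, the stem cell factor receptor, did so in 31 and 31 cells, and Fcer1a, the IgE-binding chain, in 31 and 30. These genes are also read in BMCPs and do not by themselves mark a cell as mature. Cma1 stood at 66748 CPM in the BMCPs with the highest ratio and at 35768 in those with the lowest. A list of 10 genes known from the progenitor gate took 0.00813% of pooled reads in high-ratio, 0.0153% in middle and 0.0105% in low-ratio cells. The median share per cell went the other way between the outer groups, at 0.00359% in high-ratio and 0.00142% in low-ratio cells. The T and NK cell markers Cd3e, Cd3d, Cd3g, Trac and Ncr1 and the macrophage markers Adgre1, Csf1r and Cd68 had 0 reads in the mature cells. Other listed markers of such cells did have reads. The macrophage marker Icam2 was read in 5 high-ratio and 3 low-ratio cells and the eosinophil marker Il5ra in 9 and 7. The B cell markers Cd79b and H2-Ab1 were read in 3 and 7 and in 14 and 8. Single cells carried isolated signals, among them 2549 reads of Cd4 in low-ratio cell 65 and 410 reads of Lyz2 in low-ratio cell 73. The immunoglobulin gene Ighm had 8266 reads in high-ratio and 12505 in low-ratio cells, and was read in 22 and 24 of 31 cells. The part of these reads in the differences below was not tested.

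In pooled counts, calls were about as frequent in one direction as in the other. Of 2620 genes with a mean of at least 10 CPM and a read in at least 50% of the 94 cells, 306 (11.7%) were at least 1.5-fold higher in pooled high-ratio cells and 320 (12.2%) at least 1.5-fold lower. The median log2 ratio, high minus low on CPM + 1, was -0.01, and 1103 genes (42.1%) lay within 1.2-fold. Compared by the median of per-cell CPM instead, 994 genes were at least 1.5-fold higher and 415 lower. Per ERCC read the median log2 ratio was 1.73, which follows from the choice of cells, and 10 genes were lower in high-ratio cells even on that scale.

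Calls were most frequent among genes of 30 to 100 CPM and less frequent above 300 CPM. Of 261 genes between 10 and 30 CPM, 25 (9.58%) were higher and 35 (13.4%) lower. Of 958 genes between 30 and 100 CPM, 147 (15.3%) were higher and 155 (16.2%) lower. Of 1063 genes between 100 and 300 CPM the counts were 122 (11.5%) and 123 (11.6%). Among 263 genes between 300 and 1000 CPM the counts were 12 (4.56%) and 6 (2.28%). Among the 75 genes at 1000 CPM or more 0 were higher and 1, Tpsg1, was lower. Of 157 tested genes with a read in all 94 cells, 122 were within 1.2-fold, 0 were higher and 3, Ahnak, Tpsg1 and Lars2, were lower.

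**Figure D2:**
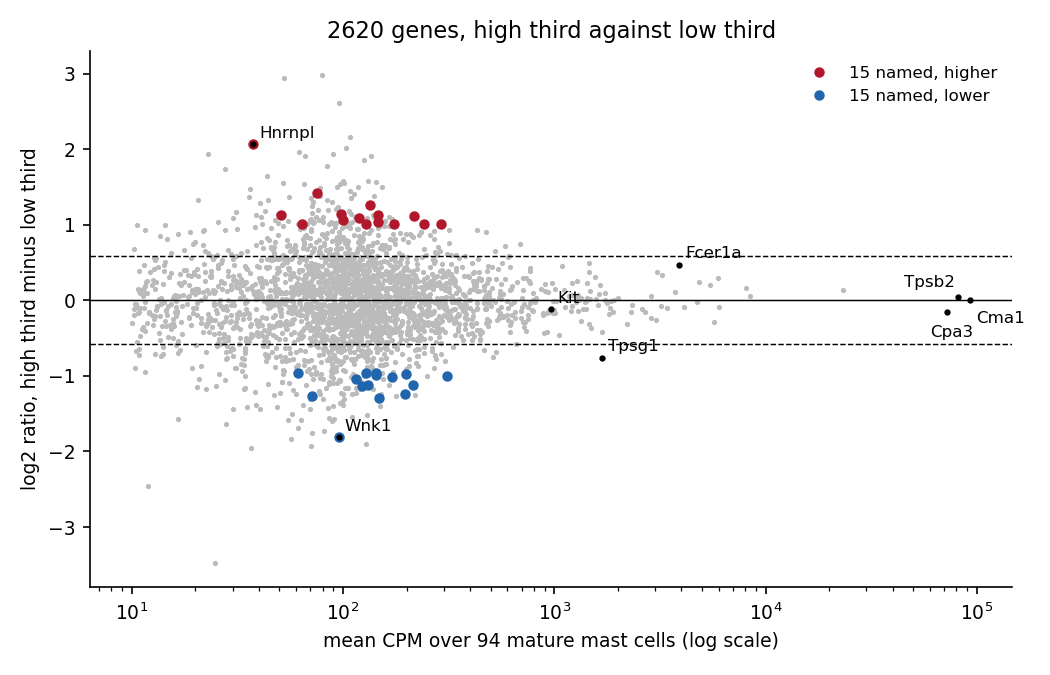
Log2 ratio of high-ratio over low-ratio cells (pooled CPM + 1) against mean CPM over 94 mature mast cells (log scale), 1 point per gene for 2620 genes; dashed lines mark 1.5-fold. The spread narrows with level, and Cma1, Tpsb2 and Cpa3 lie near 0 while Tpsg1 lies below the lower line.

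The granule proteases, which define these cells, took the same share of reads in both groups. Their summed share was 14 to 36.9% in high-ratio cells, with a median of 28%, and 21.6 to 33.5% in low-ratio cells, with a median of 27.2%. Of 8 tested proteases 1 was called higher and 1 lower, against 11.7% and 12.2% of all genes, and their median log2 ratio was 0.08. Cma1 ran from 57206 to 121277 CPM with a median of 90134 in high-ratio cells, and from 66033 to 119405 with a median of 88581 in low-ratio cells. The ranges covered each other, and its pooled log2 ratio was 0.01. Tpsb2 had a log2 ratio of 0.04 and Cpa3 of -0.15.

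Tpsg1, a membrane-anchored tryptase and no member of that list, was called lower in pooled high-ratio cells. It lies on GRCm38 chromosome 17, 25369273 to 25374442, and overlaps Cacna1h on the other strand. Its level was 177 to 4014 CPM with a median of 1083 in high-ratio cells, and 612 to 6417 with a median of 1571 in low-ratio cells. The pooled level was 1203 CPM in high-ratio, 1680 in middle and 2038 in low-ratio cells, a log2 ratio of -0.76, and the ranges of single cells overlapped. Between the medians over cells the log2 ratio was -0.54, under 1.5-fold. Within cells numbered 1 to 47 it was -0.45, also under 1.5-fold, and within cells 48 to 94 it was -0.90. BMCPs divided by the same ratio gave 0.24.

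Cathepsin G (Ctsg), another granule protease, was the most raised of the genes above 300 CPM, and 1 cell set that value. It ran from 0 to 6870 CPM with a median of 2.65 in high-ratio cells and from 0 to 2830 with a median of 2.45 in low-ratio cells. Its log2 ratio was 0.93 and became -0.22 without high-ratio cell 29. Mcpt8, a protease known from basophils, was called lower at -1.63 and stood at -0.20 without low-ratio cell 13.

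Genes for the granule matrix and its amines were nearly level as a list in pooled counts. Of 8 tested, 1 (Ext1) was called higher and 0 lower, against 11.7% and 12.2% of all tested genes. The list's median log2 ratio was 0.07. Serglycin (Srgn), the granule's core proteoglycan, had a median of 4400 CPM in high-ratio and 4775 in low-ratio cells and a pooled log2 ratio of -0.02. Tph1, which makes the precursor of serotonin, stood at -0.27 in pooled counts, and at -0.31 and -0.19 in the same blocks of cells. Its median was 2279 CPM in high-ratio and 3522 in low-ratio cells, a log2 ratio of -0.63 between medians. Single cells ran from 914 to 6188 CPM and from 211 to 9429, so the ranges overlapped.

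Receptors and their signalling genes behaved alike. In the IgE receptor list 1 of 9 was called higher, the kinase Syk, and 0 lower, with a median log2 ratio of 0.06. Over all tested genes the shares were 11.7% higher and 12.2% lower. Fcer1a ran from 194 to 12478 CPM with a median of 3508 in high-ratio cells, and from 8.53 to 8774 with a median of 2931 in low-ratio cells. Its pooled log2 ratio of 0.47 is under 1.5-fold, and the ranges overlapped. Kit ran from 184 to 2146 CPM with a median of 809 and from 216 to 3207 with a median of 1047, a pooled log2 ratio of -0.11. Of 11 Kit and cytokine receptor genes 1 was called higher, Csf2rb2 at 1.13.

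Among 9 transcription factors known from mast cells 1 was called higher and 2 lower, against 11.7% and 12.2% of all tested genes. Lmo4 stood at 1.38, Tal1 at -0.85 and Hes1 at -0.87, and Hes1 stood at -0.18 without low-ratio cell 86. Gata2, a factor that mast cells require, had a median of 683 CPM in high-ratio and 1036 in low-ratio cells and a log2 ratio of -0.46. Of 6 immediate early genes 1, Ier3, was called higher.

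The lists of genes for making and moving protein had medians between -0.14 and 0.07. Their counts stand against 11.7% higher and 12.2% lower over all tested genes. Of 34 cytosolic ribosomal protein genes 1 was called higher and 3 lower, with a median log2 ratio of -0.03. Of 22 translation factors the counts were 2 and 3, with a median of -0.13. Of 31 genes of endoplasmic reticulum (ER) folding and secretion 4 were called higher, Hspa5, Manf, Sec61a1 and Rpn1, and 2 lower, Pdia4 and Ssr2, with a median of 0.07. Of 28 lysosomal and proton pump genes 2 were called higher, Ctsz and Hexa, and 3 lower, with a median of 0.02. Of 12 exocytosis genes 1, Stx7, was higher and 4 lower, the fusion proteins Snap23, Vamp2 and Stx3 and the endosomal GTPase Rab5a, with a median of -0.14.

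Of 55 nuclear genes of oxidative phosphorylation 4 were called higher and 2 lower, against 11.7% and 12.2% of all tested genes, and the median log2 ratio was 0.00. Of 7 transcripts of the mitochondrial genome 0 were called in either direction, with a median of -0.28. All mitochondrial genes together took 0.419 to 1.04% of endogenous reads in high-ratio cells, with a median of 0.80%. In low-ratio cells they took 0.517 to 1.32%, with a median of 0.922%. Over the 94 cells this share had a Spearman rho of -0.36 with the ratio. Of 11 glycolysis genes 0 were higher and 1, the glucose transporter Slc2a1, was lower. With so few tested genes in the mitochondrial and glycolysis lists, these counts cannot be set apart from those shares.

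**Figure D3:**
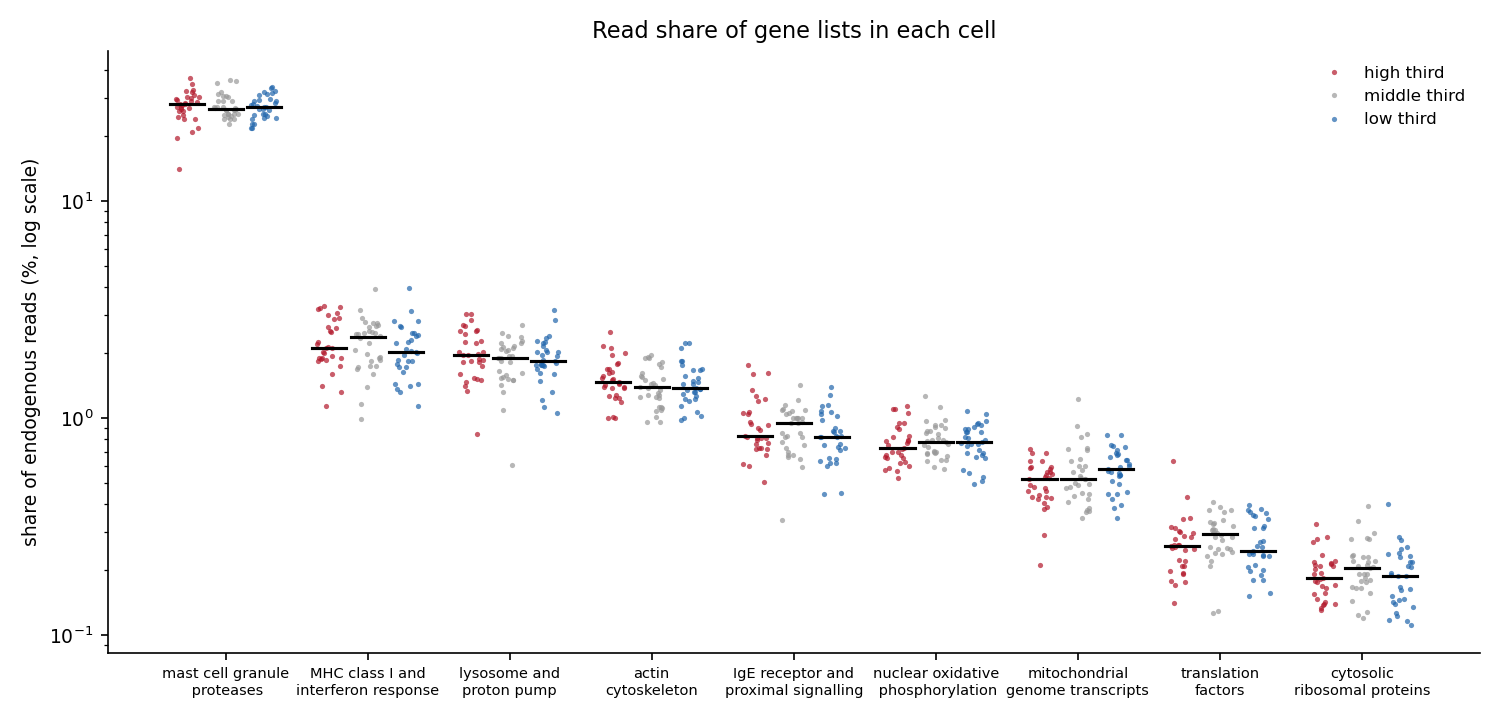
Share of endogenous reads (percent, log scale) taken by 9 gene lists in each mature mast cell, with 1 point per cell and a bar at the median of the 31 high-ratio, 32 middle and 31 low-ratio cells. The groups overlap in every list drawn, and the granule proteases hold a median of 28% of reads in high-ratio and 27.2% in low-ratio cells.

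Some lists had medians farther from 0, and their counts stand against 11.7% higher and 12.2% lower over all tested genes. The chaperones stood at 0.27, with 2 of 13 called higher and 1 lower, and the RNA polymerase II list at 0.54, with 2 of 7 higher and 1 lower. The RNA decay list stood at -0.50, with 3 of 6 lower, Exosc3, Cnot2 and Pan3. None of the 3 held its size in both blocks of cells. The chaperone median was 0.42 in cells 1 to 47 and -0.01 in cells 48 to 94, the polymerase median -0.08 and -0.19, and the decay median -0.62 and -0.11. Lists with fewer tested genes went both ways. The Bcl2 family and apoptosis list (5 tested) stood at -0.38, and at -0.88 and -0.67 in the blocks. The ATF4 and amino acid response list (4 tested) stood at 0.29, and at 0.26 and 0.56. The Myc and growth control list (3 tested) stood at 0.25, and at 0.84 and -0.18.

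A rule on level, detection, the median over cells and the ratio without the cell with most reads left 57 genes higher and 37 lower, and the 15 largest of each are named. Not all of them were read in more cells of the group where they were higher. Rab19, among the higher genes, was read in 19 of 31 high-ratio and 26 of 31 low-ratio cells. Lrrfip1 was read in 27 and 28, and Eif3k in 24 and 24. Of the lower genes Hnrnph2 was read in 25 and 23, Srrm1 in 24 and 23, and Ahnak in all cells of both groups. Over the 94 cells, rhos of CPM with the ratio ran from 0.01 (Rab19) to 0.34 (Tra2b) for the higher genes. For the lower genes they ran from -0.24 (Fuca2) to -0.07 (Srrm1). The higher genes were led by Hnrnpl, a regulator of splicing at GRCm38 chromosome 7, 28808541 to 28822266, which overlaps a gene on the other strand. It ran from 0 to 399 CPM with a median of 14.5 in high-ratio cells and from 0 to 171 with a median of 4.74 in low-ratio cells. The pooled difference was 4.18-fold, a log2 ratio of 2.06, and the ranges overlapped. Without high-ratio cell 74 the log2 ratio was 1.73. It was 0.49 in cells 1 to 47, under 1.5-fold, and 2.87 in cells 48 to 94, and it turned to -0.17 when cells were ranked by odd-numbered spike-in species. Prkca, protein kinase C alpha, followed at 1.42, with a median of 36.7 CPM against 12.9.

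Cd34, a sialomucin of blood progenitors that mast cells also carry, was read in 26 of 31 high-ratio and 18 of 31 low-ratio cells. Its median was 170 CPM in high-ratio and 0.656 in low-ratio cells, and its pooled log2 ratio was 1.12. Hspa5, the main chaperone of the ER, ran from 0 to 1195 CPM with a median of 271, against 0 to 1001 with a median of 1.31, and its log2 ratio was 1.01. Ranked by odd-numbered species, Hspa5 stood at -0.073. The upper quartile of Cd34 was 342 CPM in high-ratio and 143 in low-ratio cells, and its lower quartile was 1.29 and 0, so that cells nearly without it were present in both groups. The other 11 stood between 1.01 and 1.26. They were Ier3, Metap2, the splicing factor Tra2b, the ER calcium channel Tmco1, Rab19, the initiation factor subunit Eif3k, the class I gene H2-Q7, the ATP synthase subunit Atp5d, the tubulin Tuba1b, the kinase Stk4 and Lrrfip1. H2-Q7 and Tuba1b have close relatives whose reads may not be kept apart, and Prkca, Cd34, Atp5d, Tuba1b and Stk4 overlap other annotated genes. Tra2b turned to -0.11 by odd-numbered species, and Metap2, Tuba1b and Stk4 turned to -0.58, -0.26 and -0.37 by ERCC-00074 alone.

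The lower genes were led by Wnk1, a kinase that controls ion transport, at chromosome 6, 119923969 to 120038672. It ran from 0 to 305 CPM with a median of 3.86 in high-ratio cells and from 0 to 852 with a median of 7.44 in low-ratio cells. Its log2 ratio was -1.81, and of the 30 named genes it alone was lower per ERCC read as well, at -0.11. Nelfb, a subunit of the complex that pauses RNA polymerase II, stood at -1.30, with a median of 21.1 CPM against 197. Swap70, which binds membrane phosphoinositides, stood at -1.24. By odd-numbered species Wnk1 turned to 0.27 and Nelfb to 0.15.

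Ahnak, a very large scaffold protein, was read in all 62 cells. It ran from 2.08 to 526 CPM with a median of 133 in high-ratio cells and from 3.66 to 858 with a median of 299.5 in low-ratio cells. The pooled log2 ratio was -1.01, and the middle cells, at 387 CPM, were level with the low-ratio cells at 384. By odd-numbered species its log2 ratio turned to 0.14. The other 11 stood between -0.96 and -1.26. Among them were the GABA transporter Slc6a13, the splicing regulators Mbnl1 and Srrm1, the lysosomal glycosidase Fuca2, Hnrnph2, the helicase Ddx24, the GTPase Rragc of amino acid sensing, Nav1, Prrc2c and the chromatin remodeller Atrx. Wnk1, Nelfb, Slc6a13, Swap70, Mbnl1, Ddx24, Rragc, Nav1, Prrc2c and Atrx overlap other annotated genes. Nav1 and Srrm1 turned to 0.14 and 0.082 by odd-numbered species, Rragc and Srrm1 to 0.22 and 0.14 by ERCC-00074 alone, and Atrx to 0.039 in cells 48 to 94.

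The middle cells lay between the outer groups for 14 of the 15 higher and 10 of the 15 lower named genes. Over all called genes they did so for 205 of 306 and 203 of 320. All these genes were picked by the gap between the outer groups, which by itself favours a middle value between them.

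The mature cells were divided by their numbers into cells 1 to 47 and 48 to 94 and ranked again within each block; the labels do not say whether the numbers follow plates. The first block gave 492 genes at least 1.5-fold higher (18.8%) and 500 lower (19.1%), the second 511 (19.5%) and 520 (19.8%). Both blocks called 120 genes higher, which is 24.4% of the first list and 23.5% of the second, and 122 lower, 24.4% and 23.5%. A further 89 genes were higher in the first and lower in the second, and 97 the reverse. Across the 2620 genes, which are not independent replicates, the blocks' log2 ratios had a Pearson r of 0.07. Over 338 genes of at least 300 CPM it was -0.02. Of the named genes, which were chosen on all cells together, 8 of 15 higher and 9 of 15 lower were called in both blocks.

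**Figure D4:**
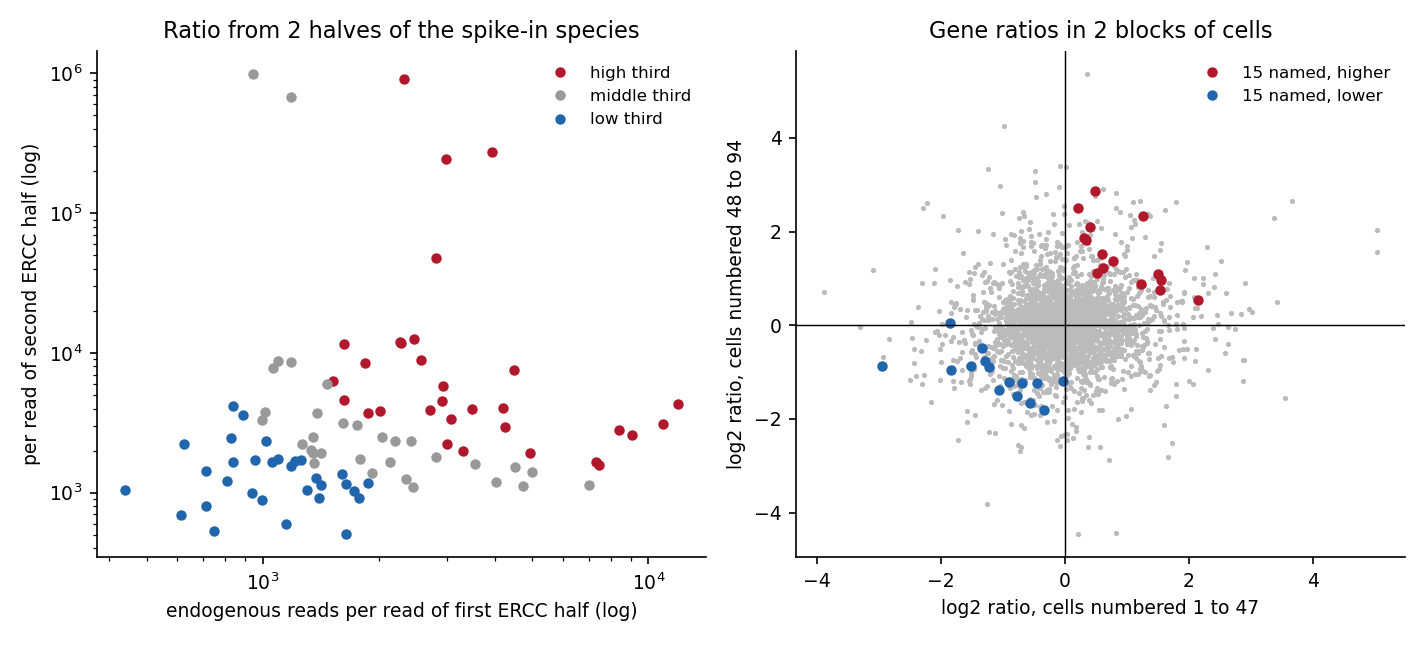
Left, endogenous reads per read of 1 set of 46 ERCC species against the same for the other set (both log scale), 1 point per mature mast cell; right, gene log2 ratios in cells 1 to 47 against cells 48 to 94, 1 point for each of 2620 genes. The ratios from the spike-in sets have a rho of 0.21, and the blocks' gene ratios an r of 0.07.

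BMCPs divided by the same ratio gave 523 genes higher (20%) and 608 lower (23.2%). They shared 78 of the 306 higher genes (25.5%) and 89 of the 320 lower genes (27.8%), while 81 and 60 were called in the opposite direction. Of the 15 named higher genes 1 was called the same way in BMCPs and 8 the opposite way. Of the 15 named lower genes the counts were 3 and 3.

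More genes were detected in high-ratio cells. With every cell thinned to 500000 reads, 3071 to 6308 genes had a read in a high-ratio cell, with a median of 3864. Middle cells had a median of 3565, and low-ratio cells had 2534 to 4459 with a median of 3421. The medians of the outer groups differed by 443 genes, and the ranges overlapped widely. The typical tested gene was read in 67.7% of high-ratio and 61.3% of low-ratio thinned cells, and 1666 genes were read in more high-ratio cells against 565 in more low-ratio cells. BMCPs divided by the ratio differed by 640 genes, with a rho of 0.67 between ratio and genes detected over 90 cells, against 0.37 over the 94 mature cells.

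Genes of the G2 and M phases of cell division, which are part of that count, had a median of 8 read per high-ratio and 7 per low-ratio cell. Their share of reads had a median of 0.0945% in high-ratio and 0.107% in low-ratio cells. Of 54 listed genes at least 10 were read in 10 of 31 high-ratio cells (32.3%, exact Clopper-Pearson 95% interval 16.7 to 51.4%), in 3 of 32 middle cells and in 4 of 31 low-ratio cells (12.9%, 3.63 to 29.8%). These intervals cover counting error only, not differences between mice. High-ratio cell 59 had 53 of these genes and 6308 genes in all, and high-ratio cell 70 had 47 and 4936. Both read the proliferation gene Mki67, at 217 and 787 CPM, the topoisomerase Top2a, at 1088 and 958, and the mitotic kinase Cdk1, at 562 and 825. They ranked 9 and 19 of 94 by ratio.

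Those 2 cells held much of the group's G2/M signal. The list summed to 2028 CPM in high-ratio and 989 in low-ratio cells, and to 1038 in high-ratio cells without them. Of 9 tested G2/M genes 3 were called higher, Hmgb2, Smc4 and Tubb4b, and 1 lower, Anp32e, against 11.7% and 12.2% of all tested genes. The difference in genes detected was 378 without cells 59 and 70, in place of 443. Without all 17 cells with at least 10 G2/M genes, which were picked by a part of the same count, and with the rest ranked again, it was 99. Ranked by odd-numbered spike-in species it was 101. The part of division or of the spike-in in the difference was not tested further.

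**Figure D5:**
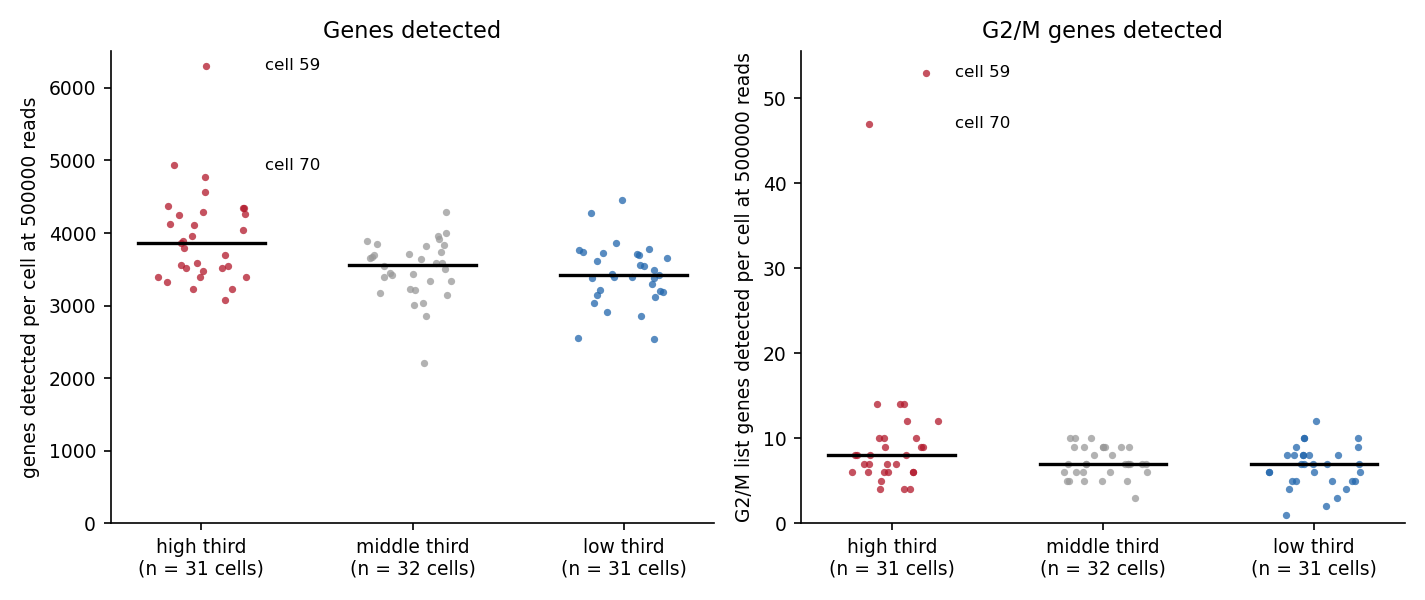
Genes detected (left) and G2/M list genes detected (right) per mature mast cell at 500000 reads, with 1 point per cell and a bar at the median. High-ratio cells have a median of 3864 genes against 3421 in low-ratio cells, and cells 59 and 70 stand far above all others in G2/M genes.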

How the data were processed

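Read counts per gene were deposited by the authors for 189 single cells, made with GSNAP and HTSeq 0.5.3p3 on mm10, per the submitters' processing notes. The annotation release and strand setting are not given in the sources used here, so overlapping genes are uncertain. Reads placed at several sites were 0 in the summary row, so close relatives are uncertain too. Sorting used 2 plates with 96 wells each, and 23 PCR cycles amplified the cDNA without molecular identifiers, per the labels. PCR copies are therefore counted as reads, and the intervals for shares of cells take cells as independent draws from 1 pooled sample. Doublets were not called. No 2 cells had identical counts. Medians of 11.9% of reads in high-ratio and 12.8% in low-ratio cells had no feature; summary and ERCC rows stayed out of library totals.

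Mature cells held 561600 to 2152221 endogenous reads. Counts were summed over cells, scaled to CPM and compared as log2(CPM + 1). With 1 pooled sample no test was made, and a call means a 1.5-fold difference. Symbols and coordinates are from GENCODE M21 on GRCm38. Named genes had at least 30 CPM, a read in at least 70% of cells, medians differing at least 1.2-fold the same way and a ratio of 1.5-fold or more without the cell with most reads, and the 15 largest each way were taken; added to these were the 3 most abundant genes of each list and all called members of 6 lists (granule proteases, granule matrix, IgE receptor, Kit and cytokine receptors, transcription factors, immediate early). Tpsg1, Lars2, the other genes named among counts of calls and the marker genes were named after their values were seen. Some genes that these rules name are not reported here. The cells, the 40 gene lists and the rules were chosen with earlier results of these data known. Alternatives covered scaling (edgeR 4.0.16 TMM, DESeq2 1.42.0 size factors), filters, pseudocount, group size, spike-in species, blocks of cells and leaving out cells. Python 3.11.15 and R 4.3.3 were used, and the scripts were tested on simulated data.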

Additional observations from a re-analysis of the deposited data

How the results depend on the processing

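No paired analysis was possible because the results come from no test and cell numbers only name cells. The 306 higher and 320 lower genes stayed within 1.5 times under TMM and DESeq2 scaling, a mean of 50 CPM, a pseudocount of 5 and thinning, and ran from 303 to 334 and from 312 to 351 when each cell was left out in turn. Without a filter they were 3998 and 3540. By the median of per-cell CPM 994 were higher, and the median of all genes moved to 0.24. The highest and lowest 47 cells gave 187 higher, the blocks 492 and 500, and 511 and 520, and genes read in all 94 cells 0 and 3. Counts hide a change of genes: spike-in species with odd numbers gave 298 higher, of which 67 were among the 306. The difference of 443 genes detected ran from 410.5 to 455 with each cell left out. It was 174 for 47 against 47 cells, 101 by odd-numbered species, 180 in cells 48 to 94, 99 without cells with 10 G2/M genes, 212 by ERCC-00074 alone, 242 without it and 211 without thinning. By odd-numbered species, log2 ratios reversed for Hnrnpl (-0.17), Tra2b (-0.11), Hspa5 (-0.073), Wnk1 (0.27), Nelfb (0.15), Ahnak (0.14), Nav1 (0.14) and Srrm1 (0.082). By ERCC-00074 alone they reversed for Metap2 (-0.58), Tuba1b (-0.26), Stk4 (-0.37), Rragc (0.22) and Srrm1 (0.14), and in cells 48 to 94 for Atrx (0.039). The causes were not tested. The settings on ERCC-00074, on genes read in all cells and on leaving out cells 59 and 70 were chosen after seeing the data.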

Other observations

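Further called genes were Nkg7 and Itga2b. Nkg7, a granule membrane gene of cytotoxic cells and basophils, had 40 reads in high-ratio cells, 1608 in middle and 980 in low-ratio cells, and low-ratio cell 52 held 643 of the 980. Itga2b, an integrin of platelets that mast cells can carry, had 11076 reads in high-ratio and 7351 in low-ratio cells, a log2 ratio of 0.86. It had a read in 29 of 31 high-ratio and 24 of 31 low-ratio cells. Genes called higher had a median exon length of 3791 bases and those called lower 4427, against 3306 for the rest. Called genes were also sparser, with a median level of 92.9 and 90.5 CPM against 113 for the rest. They were read in a median of 60.6% and 61.7% of cells against 74.5%. The part of level in the difference of length was not tested.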
